A study of Mus musculus with 4 samples.

Results

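Mgl2 and Clec10a are the neighbouring mouse genes of the CD301 lectins. Mgl2 encodes CD301b, and Clec10a encodes CD301a. The 2 genes were chosen by name from the 27998 genes of a single-cell count table of CD11b+ splenocytes, and were followed through every deposited cell type, cluster and surface-tag gate. In the MoMacDC bundle, the study's set of monocyte, macrophage and DC clusters, the summed Mgl2 level was 218 CPM (UMIs of the gene per 1000000 UMIs of the group) in the GM-CSF-treated library and 6.55 CPM in steady state. The Clec10a level was 122 CPM and 38.7 CPM in the same cells, and the cell makeup of the bundle differed between the libraries. Within the GM-CSF-treated library, Mgl2 was 12.3-fold higher in CD301b+ P-IV cells than in CD301b- P-III cells, a gate set on the tag of its own protein, whereas the Clec10a ratio was 0.969.

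The spleens came from C57BL/6 mice of 8 to 12 weeks, either in steady state or 24 hours after 3 once-daily subcutaneous injections of 10 µg GM-CSF, a growth factor of myeloid cells. CD11b+ cells were sorted and measured by CITE-seq, which counts a cell's RNA molecules (UMIs) and the antibody tags on its surface together. The 5 tags were CD115, CD11c, Ly6C, MHC II and CD301b. There was 1 library per condition, so the condition and the library cannot be told apart and no test between them was possible.

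The CD301 proteins are C-type lectin receptors of macrophages and DCs. They bind sugars that end in galactose or N-acetylgalactosamine, take the bound material up, and pass it to the endosomes. The liver genes Asgr1 and Asgr2, which encode the asialoglycoprotein receptor, belong to the same family. CD301b marks dermal and monocyte-derived DCs in mice and was one of the tags by which the study gated its GM-CSF-induced DCs.

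In the GENCODE annotation of GRCm38, the build called mm10 in the submitters' notes, the family lay in a row on the plus strand of chromosome 11. Mgl2 spanned chr11:70130329-70137550 and Clec10a spanned chr11:70156197-70170834, with 18646 bases between them. Asgr2 (chr11:70092644-70106187) ended 24141 bases before Mgl2. None of the 3 genes overlapped another annotated gene. Over 912 aligned coding bases, Mgl2 and Clec10a were 91.1% identical, against 62.4% for Mgl2 with Asgr2 over 881.

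The stretches below show how close the coding sequences are at the sugar-binding site. The capitals mark the codons of the glutamine-proline-aspartate motif, known in this lectin family for galactose-type binding. Each stretch is coding, 69 bases long, 5′ to 3′ on the plus strand, and was read from the annotated transcript across the junction into its last exon (exon 10 of Mgl2 and Clec10a, exon 9 of Asgr2). The genomic spans are chr11:70136763-70136975, chr11:70170253-70170472 and chr11:70105469-70105779.
Mgl2: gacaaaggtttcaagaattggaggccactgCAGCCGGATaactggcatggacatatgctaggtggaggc
Clec10a: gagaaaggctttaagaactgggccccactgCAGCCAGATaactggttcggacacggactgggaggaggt
Asgr2: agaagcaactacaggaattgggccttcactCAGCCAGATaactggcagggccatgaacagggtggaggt
Mgl2 and Clec10a differed at 18 of the 69 bases, and Mgl2 and Asgr2 at 28.

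This likeness bears on counting. Of the 897 windows of 100 bases in the Mgl2 coding sequence, 91 occurred without a mismatch in Clec10a, and 408 occurred with at most 3 mismatches. In the last 500 bases of the main transcripts, which a 3′ kit reads most, no window of either gene came that close. The fewest mismatches there were 47 for Mgl2 windows and 10 for Clec10a windows. How reads that matched both genes were assigned was not tested.

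The steady-state library held 4827 cells with a median of 3371 UMIs, and the GM-CSF-treated library 6804 cells with a median of 4916. The bundle held 2135 and 3940 of these cells, with close medians of 6894 and 6654 UMIs. The libraries shared 8 cell barcodes, none with identical counts. Intervals are exact 95% intervals and cover counting error only. Some deposited names did not match their markers. The cells named cDC2-A carried the 6 NK cell markers at a summed 19168 CPM in steady state and 19911 CPM after treatment, with the 5 cDC2 markers at 50.1 and 47.8 CPM. The 43 steady-state cells of MoMacDC_c4 also carried the NK markers, at 11946 CPM, against 1.57 CPM in its 595 treated cells. Steady-state and treated MoMacDC_c4 are therefore given side by side and not compared.

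Mgl2 was concentrated in 1 deposited cell type. In the GM-CSF-treated library its level in MoMacDC_c2 was 488 CPM (474 to 502), with a UMI in 1080 of 1471 cells (73.4%). MoMacDC_c4 followed at 136 CPM (126 to 146), and MoMacDC_c1 at 65.1 CPM (59.8 to 70.7). The counting intervals of these 3 neighbours in the order did not touch. MoMacDC_c5, where the 6 non-classical monocyte markers summed to 2103 CPM against 147 to 281 CPM in the other 3 types, had no Mgl2 UMI in 139 cells, which allows up to 9.44 CPM. Across the 4 types Mgl2 thus ran from not detected to its highest level.

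Clec10a kept the order of these types but not the spacing. Its level was 177 CPM (169 to 186) in MoMacDC_c2, 116 (107 to 125) in MoMacDC_c4, 107 (101 to 115) in MoMacDC_c1 and 10.2 (2.79 to 26.2) in MoMacDC_c5. The intervals of MoMacDC_c4 and MoMacDC_c1 overlapped. Outside the bundle only the 22 treated macrophages came near these levels, with 6 Clec10a UMIs in 3 cells (127 CPM, 46.6 to 276). Mgl2 in the smaller types rested on at most 7 UMIs each, at 42.3 CPM (5.13 to 153) in the macrophages, 27.9 CPM (11.2 to 57.5) in 79 B cells and 17.9 CPM (2.17 to 64.7) in 20 activated DCs. Progenitor DCs stood at 16.4 CPM (12.2 to 21.7) for Clec10a and 8.39 CPM (5.43 to 12.4) for Mgl2.

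Granulocytes served as the measure of free RNA. In the treated library 2 of 1791 granulocytes had a Mgl2 UMI (0.112%) and 4 had a Clec10a UMI (0.223%), at a median depth of 1229 UMIs, against 6436 UMIs in MoMacDC_c2. With each cell drawn to 1000 UMIs, Mgl2 was found in 0.0772% of granulocytes and 34.8% of MoMacDC_c2 cells, and Clec10a in 0.154% of granulocytes and 214 of 1424 MoMacDC_c2 cells. Treated neutrophils held more Mgl2 than granulocytes, with 61 UMIs in 26 of 893 cells (12.4 CPM, 9.45 to 15.9) and 9 Clec10a UMIs. Those 26 cells had a median of 16080.5 UMIs and a median CD301b tag count of 26, against 4344 UMIs and 6 tag counts in the other neutrophils, and 1 of the 26 was called a doublet. T cells and the cells named cDC2-A had no Mgl2 UMI in either library.

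**Figure D1:**
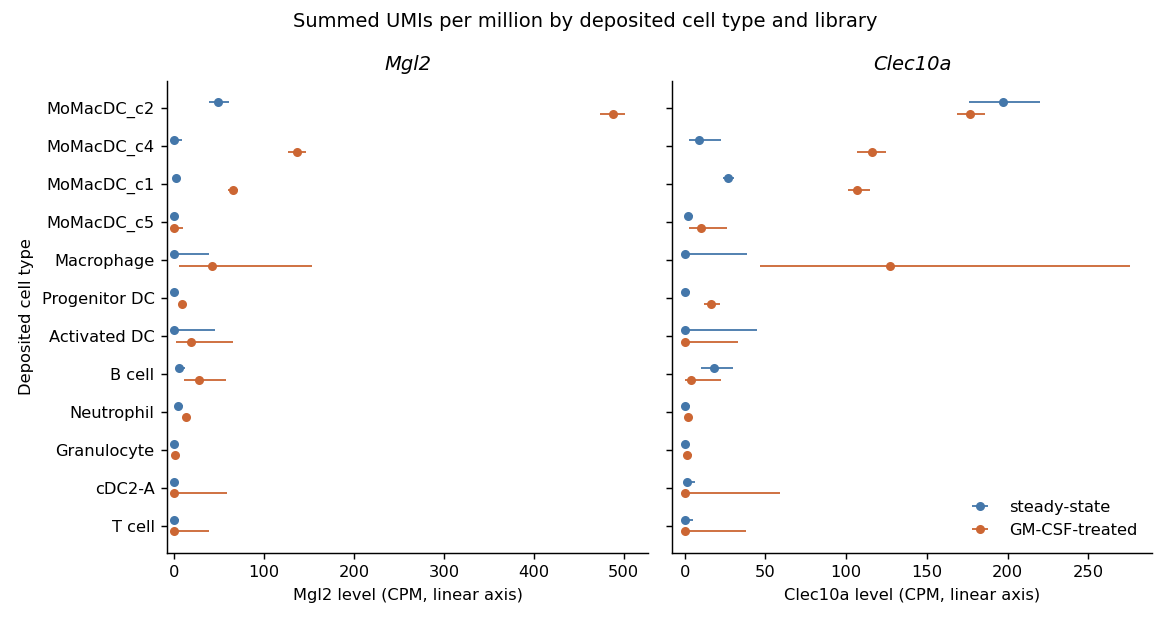
Level of Mgl2 (left) and Clec10a (right) in CPM on linear axes for each of the 12 deposited cell types; points are 1 library each (blue steady-state, orange GM-CSF-treated) and bars exact 95% counting intervals. For MoMacDC_c2 the Mgl2 points lie at 48.9 and 488 CPM, whereas the Clec10a points lie at 197 and 177 CPM with overlapping bars.

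The gap between the libraries differed between the 2 genes. Over the bundle, Mgl2 had 5910 UMIs in 1501 treated cells and 98 UMIs in 26 steady-state cells, a ratio of 33.3 (27.3 to 41.1). Clec10a had 3298 UMIs in 1507 treated cells and 579 UMIs in 285 steady-state cells, a ratio of 3.14 (2.88 to 3.44). The bundles differed in makeup. MoMacDC_c2 had 1471 treated and 177 steady-state cells, and MoMacDC_c5 had 139 and 486, so both ratios mix level with makeup. Of the 10860 genes with 50 or more UMIs over both libraries of the bundle, 8.66% were at least 2-fold higher in the treated library and 9.46% at least 2-fold lower. Ordered from the highest ratio, with 0.5 counts added to each sum, Mgl2 was the 35th and Clec10a the 431st, and the median gene stood at 0.959. Over all CD11b+ cells the ratios were 36.1 (29.8 to 44.1) for Mgl2 and 3.55 (3.25 to 3.88) for Clec10a, and at 1000 UMIs per cell the Mgl2 ratio was 95.9 (46.4 to 239), resting on 7 steady-state UMIs.

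Within 1 cell type the genes parted. In MoMacDC_c2, Mgl2 was at 48.9 CPM (38.6 to 61.0) in 177 steady-state cells and 9.98-fold higher (7.98 to 12.7) after treatment. Clec10a was at 197 CPM (176 to 220.3) in steady state and at 0.897 of that level (0.795 to 1.02) after treatment, an interval that holds 1. With each cell at 1000 UMIs the Clec10a ratio was 0.696 (0.504 to 0.981), an interval below 1, and the Mgl2 ratio 16.2 (6.89 to 49.9). The cluster makeup of MoMacDC_c2 also differed between the libraries. Cluster 3 took 49.2% of its steady-state cells and 33.7% of its treated cells. Cluster 0 took 7.91% and 44.1%, and cluster 9 took 12.4% and 0.748%, so these ratios mix level with makeup. In MoMacDC_c1, by contrast, both genes were higher in the treated library, Mgl2 by 31.0-fold (19.9 to 51.1) from 2.10 CPM and Clec10a by 4.01-fold (3.49 to 4.63) from 26.8 CPM. Different clusters held this type in the 2 libraries. Clusters 5 and 6 took 34.5% and 23.3% of its steady-state cells and 10.4% and 7.75% of its treated cells, whereas cluster 1 took 3.21% and 38.2%. Within clusters 5, 6 and 1 the Clec10a ratio was 1.26 (0.842 to 1.86), 0.721 (0.395 to 1.25) and 2.09 (1.43 to 3.17), and in cluster 2, with 23.8% and 21.6% of the cells, it was 3.70 (2.59 to 5.37). The 8 neutrophil markers summed to 8615 CPM in steady-state and 6523 CPM in treated MoMacDC_c2 cells, so a cluster low in them is given next.

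The finer clusters of the bundle, which the authors made from RNA that includes both genes, showed the same split with few neutrophil UMIs. In cluster 3, whose neutrophil markers summed to 146 CPM in steady state and 203 CPM after treatment, Mgl2 stood at 52.3 CPM (37.0 to 71.7) in 88 cells and 513 CPM (489.7 to 538) in 512 cells, a ratio of 9.82 (7.13 to 13.9). Clec10a stood at 259.9 CPM (224 to 299.8) and 226 CPM (210.4 to 243), a ratio of 0.870 (0.741 to 1.03). In cluster 0, with 14 steady-state and 668 treated cells, the Mgl2 ratio was 1.95 (1.41 to 2.79) and the Clec10a ratio 0.534 (0.387 to 0.757), and 3 of the 14 steady-state cells held all 36 Mgl2 UMIs. Among the 12 clusters with at least 20 cells in both libraries, the interval of the ratio lay above 1 in 10 for Mgl2 and in 5 for Clec10a, and below 1 in none for either gene. The steady-state cells of clusters 7 and 8 carried the NK markers at 5132 and 12267 CPM, against 0.971 and 1.64 CPM after treatment, so their ratios compare unlike cells. Both clusters are among the 10 counted for Mgl2, and cluster 8 is among the 5 counted for Clec10a. Cluster 0, with its Clec10a interval below 1, had too few steady-state cells to be among the 12.

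**Figure D2:**
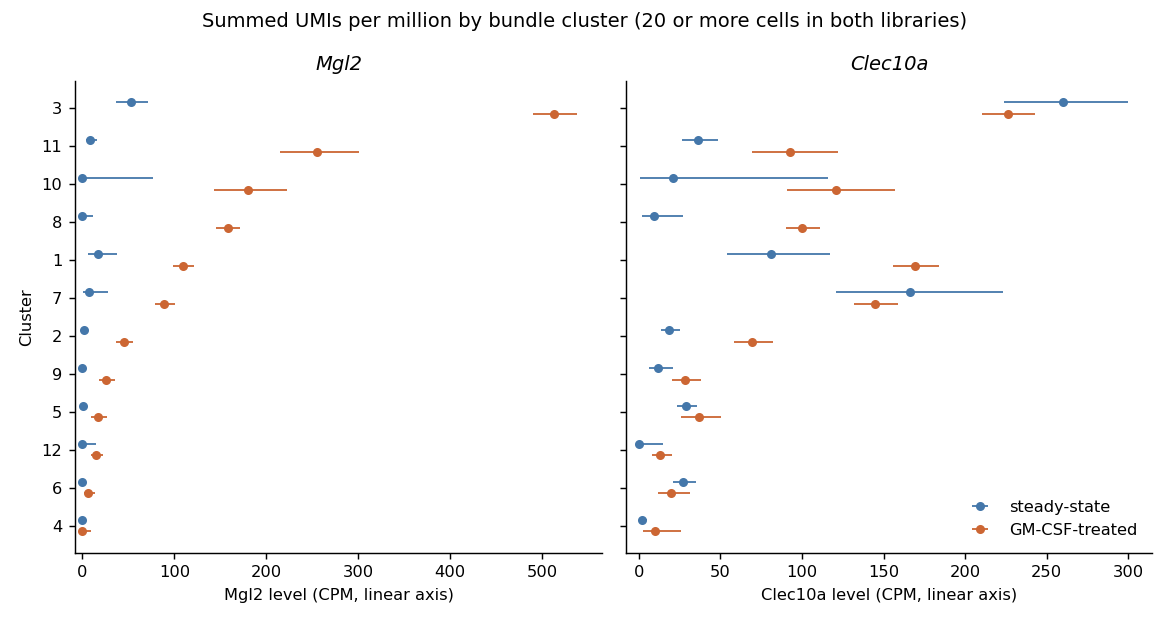
Level of Mgl2 (left) and Clec10a (right) in CPM on linear axes for the 12 bundle clusters with at least 20 cells in both libraries, ordered by treated Mgl2 level; points are libraries and bars exact 95% counting intervals. In cluster 3 the Mgl2 points are far apart at 52.3 and 513 CPM and the Clec10a bars overlap; the steady-state cells of clusters 7 and 8 carried NK cell markers.

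The balance between the genes can be read without a scaling by depth, as the share of Mgl2 among the UMIs of both. In the bundle it was 14.5% (11.9 to 17.4) in steady state and 64.2% (63.2 to 65.2) after treatment. In MoMacDC_c2 the shares were 19.8% (16.0 to 24.1) and 73.4% (72.2 to 74.5), and in MoMacDC_c1 they were 7.27% (20 of 275 UMIs) and 37.7% (35.3 to 40.2). The treated share was thus above the steady-state share in both types, and higher in MoMacDC_c2 than in MoMacDC_c1 in both libraries.

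Steady-state Mgl2 was found in few cells. Of the 26 bundle cells with a UMI, 12 had a single one, and the 6 cells with 5 or more held 63 of the 98 UMIs. Clec10a was detected in 22 of the 26, and so was Cd209a, the gene of a DC lectin, beside 285 and 262 of all 2135 bundle cells. None of the 26 was called a doublet, beside 141 of all 4827 cells of the library. Clusters 0 and 3, with 14 and 88 steady-state cells, held 17 of the 26. Outside the CD115hi gate lay 23 of the 26, beside 1952 of the 2135 bundle cells. The CD301b tag counts of the 26 cells ran from 0 to 275 with a median of 12.5, against a median of 3 in the steady-state bundle.

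The study divided CD115hi cells by tags into 4 subsets. P-I was Ly6C+, and the other three were Ly6C-. Of these, P-II lacked MHC II, P-III had MHC II without CD301b, and P-IV had both and was named GMiDCs. The CD301b tag is taken to read the product of Mgl2. The antibody clone is not given in the sources used here, and whether it also binds CD301a was not tested, which bears on every value of Clec10a against the tag. The Mgl2 difference between P-III and P-IV is therefore a check of the gate on the RNA and not an independent finding. In the treated library P-IV had 313 cells and a median CD301b tag count of 230, and P-III had 126 cells and a median of 10.

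Mgl2 followed the gate closely. It stood at 451 CPM (423 to 479) in P-IV, 36.5 CPM (24.1 to 53.1) in P-III and 25.1 CPM (17.5 to 34.9) in P-I, and P-II had no UMI in 8 cells. The P-IV to P-III ratio was 12.3 (8.43 to 18.8), and the P-III to P-I ratio of 1.45 had an interval that holds 1 (0.847 to 2.47). A Mgl2 UMI was found in 245 P-IV cells (78.3%), 14 P-III cells (11.1%) and 20 P-I cells (10.7%). At 1000 UMIs per cell these shares were 35.0%, 1.61% and 3.28%. In the same library granulocytes stood at 0.0772% (up to 0.429%), neutrophils at 0.795% and B cells at 2.60%. The P-III share (0.196% to 5.70%) overlapped these, so at this depth Mgl2 above background was not shown for P-III. With all UMIs, the P-III level lay above that of granulocytes (0.829 CPM, 0.100 to 2.99) and neutrophils (12.4 CPM, 9.45 to 15.9). It overlapped that of B cells (27.9 CPM, 11.2 to 57.5). At 1000 UMIs per cell the ratio of P-IV to P-III was 28.5 (7.75 to 238), resting on 2 P-III UMIs.

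Clec10a did not follow it. Its level was 122 CPM (108 to 137) in P-IV and 126 CPM (101 to 154) in P-III, a ratio of 0.969 (0.763 to 1.24) with no fixed direction, and 52.3 CPM (41.0 to 65.8) in P-I. The step in Clec10a lay between P-I and P-III, at 2.40-fold (1.75 to 3.31). Mgl2 showed no step there beyond counting error, but P-III was gated to lack CD301b, which keeps cells with a strong tag out. The highest CD301b tag count was 20 in P-III and 143 in P-I. The Mgl2 ratio of P-III to P-I thus also depends on the gate and is no independent finding. A Clec10a UMI was found in 149 P-IV cells (47.6%) and 39 P-III cells (31.0%), but at 1000 UMIs per cell the shares were 7.07% and 8.06%. Of the 6216 genes with 50 or more UMIs over P-IV and P-III, 1.91% were at least 2-fold higher in P-IV and 1.01% at least 2-fold lower. In that order Mgl2 was the 7th and Clec10a the 3474th. The neutrophil markers summed to 213 CPM in P-IV and 223 CPM in P-III, with Cxcr2 at 0 in both, and the macrophage markers to 207 CPM in both.

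P-III and P-IV differed in their cluster makeup, with 53.4% of P-IV cells in cluster 0 and 56.3% of P-III cells in cluster 1. Within cluster 0, Mgl2 was at 591 CPM in 167 P-IV cells and 32.5 CPM in 20 P-III cells, a ratio of 18.2 (7.08 to 67.0). Clec10a there was at 114 and 203 CPM, lower in P-IV at 0.562 (0.365 to 0.900). Within cluster 1 the ratios were 8.91 (4.76 to 18.2) for Mgl2 and 1.35 (0.902 to 2.02) for Clec10a. Cluster 10 had 20 P-IV and 10 P-III cells, and its Mgl2 ratio of 4.62 had an interval that holds 1 (0.657 to 200.5). The Mgl2 difference thus passed counting error in clusters 0 and 1, and that of Clec10a in cluster 0.

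Most cells of the treated bundle lay outside the CD115hi gate, and with them most of its Mgl2 UMIs. The cells labelled CD115-, 3256 of 3940, held 22304723 of the 27088646 UMIs of all genes and 4750 of the 5910 Mgl2 UMIs. Mgl2 stood there at 213 CPM (207 to 219), and Clec10a at 126 CPM (121 to 131). The P-IV level was 2.12-fold (1.98 to 2.26) that of the CD115- cells for Mgl2 and 0.968 (0.852 to 1.10) for Clec10a. Of these cells, 1204 (37.0%) had a Mgl2 UMI. Their Mgl2 level was 38.0-fold (30.3 to 48.3) that of the 1952 steady-state CD115- cells, and their Clec10a level 3.18-fold (2.90 to 3.49). The only CD115hi subset with enough cells in both libraries was P-I. Its 139 steady-state cells had no Mgl2 UMI and 28 Clec10a UMIs (25.6 CPM), and Clec10a was 2.04-fold (1.30 to 3.28) higher in the 187 treated P-I cells.

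**Figure D3:**
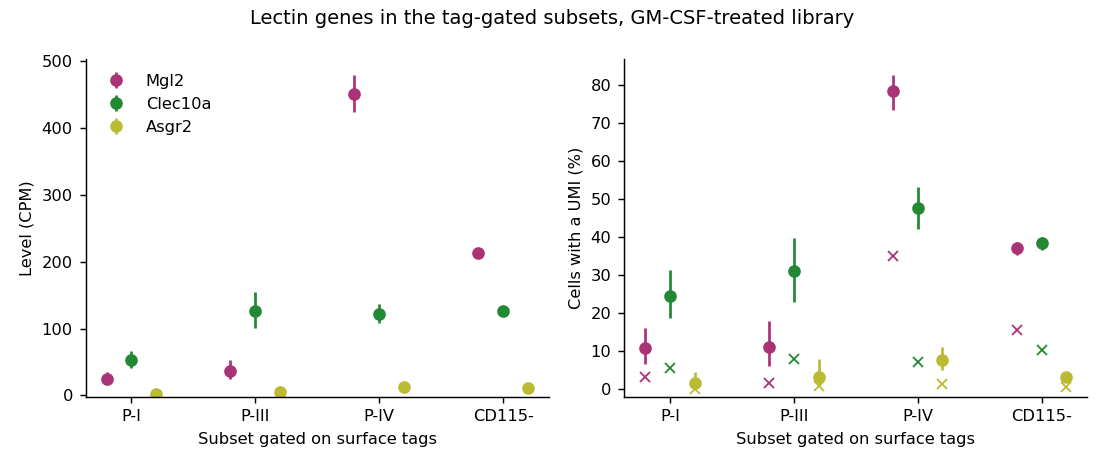
Level in CPM (left) and percent of cells with a UMI (right) of Mgl2, Clec10a and Asgr2 in the tag-gated subsets of the GM-CSF-treated library; dots carry exact 95% counting intervals and crosses give the share at 1000 UMIs per cell. Mgl2 lies at 451 CPM in P-IV and 36.5 CPM in P-III, while Clec10a lies at 122 and 126 CPM with overlapping bars; levels are to be compared within a gene.

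The tag gives a finer scale than the gate. Treated bundle cells were divided into 10 equal bins by their CD301b tag count, with medians from 3 to 694. Mgl2 was at 7.62 CPM (4.26 to 12.6) in bin 1, 30.8 CPM (24.8 to 37.8) in bin 5, 232 CPM (214 to 250.3) in bin 7 and 705 CPM (676 to 736) in bin 10. It lay between 6.55 and 21.1 CPM in bins 1 to 4 and was higher in each bin from bin 5 on. The share of cells with a Mgl2 UMI ran from 2.79% to 94.7%, and at 1000 UMIs per cell from 1.07% to 48.5%.

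Clec10a over the same bins was highest below the top. It was at 87.4 CPM (74.8 to 101) in bin 1 and 185 CPM (169 to 202) in bin 8, and stood at 133 CPM (119.9 to 147) in bin 9 and 134 CPM (121 to 148) in bin 10. The share of Mgl2 among the UMIs of both genes ran from 8.02% (4.56 to 12.9) in bin 1 to 84.0% (82.6 to 85.4) in bin 10. Median depth differed less, from 5009.5 UMIs in bin 1 to 7381 in bin 10.

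With bins 1 and 2 joined and bins 9 and 10 joined, 788 cells each, the ratio of the high-tag to the low-tag cells was 89.0 (62.6 to 131) for Mgl2 and 1.53 (1.35 to 1.73) for Clec10a. With cells binned by the tag's share of all tag counts the Mgl2 ratio was 49.9 (39.4 to 64.0), and at 1000 UMIs per cell the Clec10a ratio was 1.31 (0.929 to 1.85), an interval that holds 1. Of 9007 genes with 50 or more UMIs over these cells, 3.01% were at least 2-fold higher in the high-tag cells and 3.16% at least 2-fold lower. Mgl2 was the 6th and Clec10a the 649th in that order. The neutrophil markers moved with the tag, at 918 CPM in the low-tag and 3414 CPM in the high-tag cells, and their part was not tested.

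**Figure D4:**
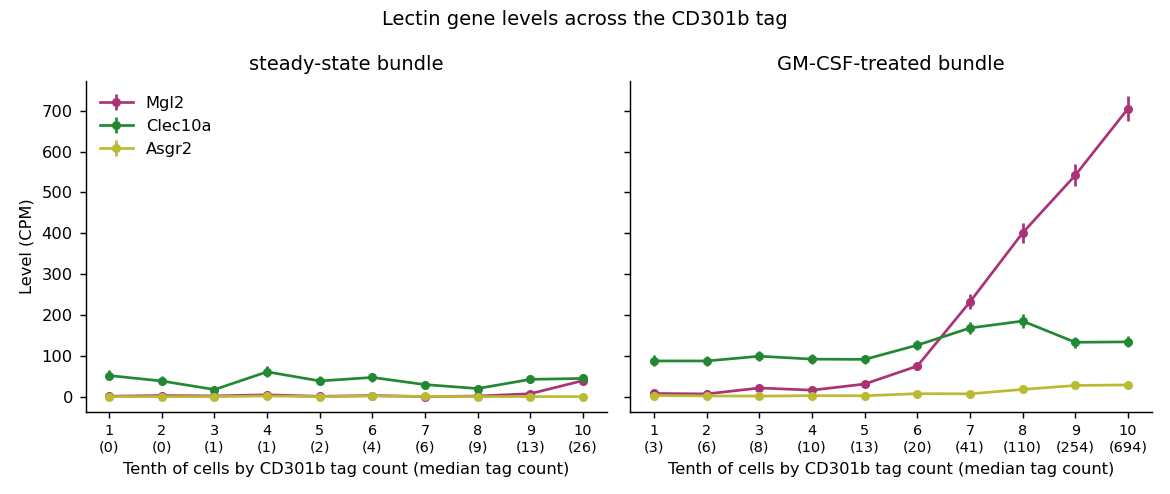
Level in CPM of Mgl2, Clec10a and Asgr2 in 10 equal bins of bundle cells ordered by CD301b tag count, with the median tag count of each bin in brackets, for the steady-state (left) and GM-CSF-treated (right) library; bars are exact 95% counting intervals. After treatment Mgl2 runs from 7.62 to 705 CPM and Clec10a peaks at 185 CPM in bin 8; levels are to be compared within a gene.

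Cell by cell, Mgl2 was the gene closest to the tag. Over the 3940 treated bundle cells the Spearman rho of Mgl2 UMIs with the CD301b tag count was 0.730, the highest of 8258 genes with 200 or more UMIs. Fgfr1, a growth factor receptor gene, came next at 0.535, followed by Tmem176b at 0.496 and Cd209a at 0.477. Clec10a was the 113th at 0.241, and the median gene stood at 0.0416. Cells of 1 library share its depth and are not replicates, and total UMIs themselves had a rho of 0.199 with the tag.

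Mgl2 also led inside the gate, while the genes behind it differed in part. In P-IV alone, where every cell had passed the CD301b limit, Mgl2 had a rho of 0.587 and was again the first of 5415 genes with 50 or more UMIs, ahead of Cd209a at 0.451 and Il1rl1, the gene of the IL-33 receptor, at 0.377. Clec10a had a rho of 0.0406 there and was the 2565th. Among CD115- cells Mgl2 was the first of 7883 genes at 0.725. In the 13 treated clusters of at least 20 cells that held a Mgl2 UMI, its rho with the tag ran from 0.137 to 0.813, and that of Clec10a, over 14 clusters, from -0.169 to 0.289. Mgl2 had the higher rho in 12 of the 13.

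Single cells show how far tag and RNA matched. Of the 301 treated bundle cells with 500 or more CD301b tag counts, 16 had no Mgl2 UMI, 92 had 2 to 4, 128 had 5 to 9 and 41 had 10 or more. Of the 1308 cells with at most 9 tag counts, 1247 had none. For Clec10a, 140 of the same 301 cells had no UMI and 6 had more than 4, and 1002 of the 1308 cells had none. At 1000 UMIs per cell, Clec10a was found in 8.05% of the cells with 500 or more tag counts and 7.20% of those with at most 9. Cells with a strong tag thus nearly always held Mgl2 RNA, and about as often lacked Clec10a UMIs as held them.

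**Figure D5:**
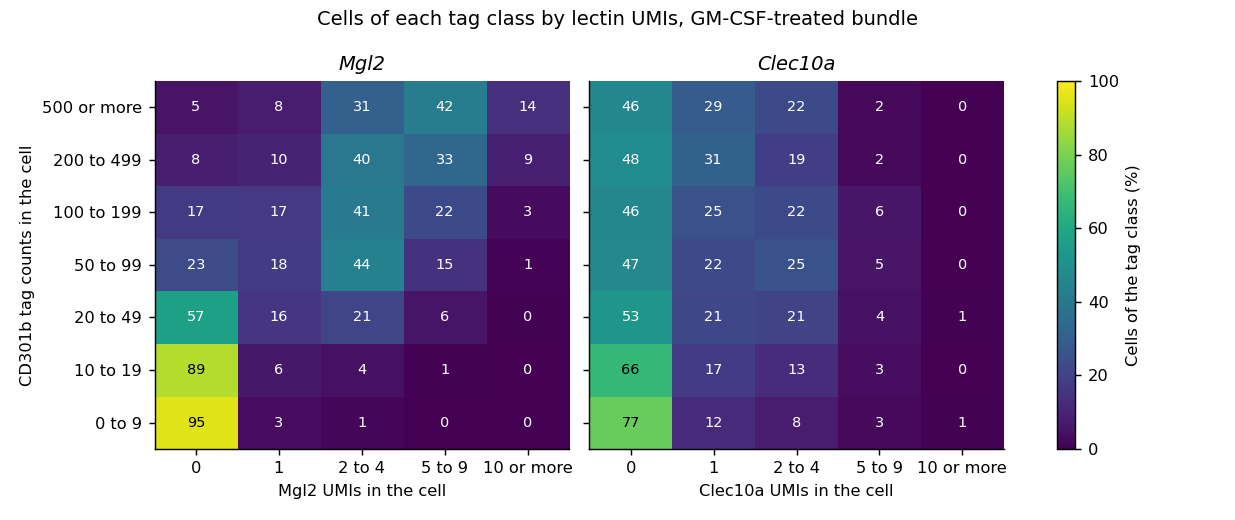
Percent of treated bundle cells of each CD301b tag class (vertical axis, tag counts per cell) that held the given number of Mgl2 (left) or Clec10a (right) UMIs (horizontal axis); each row of squares adds to the whole class and the colour scale is linear. In the class of 500 or more tag counts, 5.32% of cells had no Mgl2 UMI and 46.5% no Clec10a UMI.

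The steady-state library behaved otherwise. Over its 2135 bundle cells the rho with the tag was 0.0686 for Mgl2 and 0.0941 for Clec10a, the 3306th and the 2202nd of 9569 genes with 50 or more UMIs. Lyz2, the lysozyme gene of myeloid cells, led at 0.522, and total UMIs had a rho of 0.304. Of the 213 cells in the highest of 10 tag bins, 9 had a Mgl2 UMI, and these held 67 of the 98 UMIs. The low number of Mgl2 UMIs limits any rho in this library.

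The same tag count went with different amounts of Mgl2 in the 2 libraries. Among cells with 20 to 49 tag counts, Mgl2 was at 8.94 CPM (4.46 to 16.0) with a UMI in 2 of 148 steady-state cells, and at 160.4 CPM (148 to 174) with a UMI in 214 of 496 treated cells. At higher tag counts the levels lay closer, but those of steady state rested on few cells, and the shares of cells with a UMI stayed far apart. Among cells with 50 to 99 tag counts, Mgl2 was at 189 CPM (126 to 271) in steady state, with a UMI in 3 of 21 cells, and at 336 CPM (311 to 364) after treatment, with a UMI in 210 of 272 cells. From 100 to under 200 tag counts it was at 213 CPM (106 to 380.4) in steady state, with 11 UMIs in 2 of 8 cells. After treatment it was at 425 CPM (399 to 452), with a UMI in 273 of 329 cells. Tag counts had a background of their own. Granulocytes, which lacked Mgl2, had a median of 2 CD301b tag counts in steady state and 4 after treatment, and T cells 0 and 3. The part of this background in the tag counts of other cells was not tested.

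For scale, the other tags were set beside the gene they read. In the treated bundle the rho of each tag with its own gene was 0.596 for MHC II with H2-Aa, 0.505 for Ly6C with Ly6c2, 0.445 for CD11c with Itgax and 0.310 for CD115 with Csf1r, all below the 0.730 of CD301b with Mgl2. In steady state Ly6C with Ly6c2 reached 0.803, CD11c with Itgax 0.625 and MHC II with H2-Aa 0.635. Mgl2 was thus the gene best matched to its tag after treatment, and the least in steady state. It had only 98 UMIs in steady state, against 1554 or more for the genes of the other tags. Across tags, Mgl2 in treated cells had a rho of 0.370 with MHC II, 0.335 with CD11c and -0.232 with Ly6C. Those of Clec10a were 0.193, 0.0918 and -0.0780.

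Both lectin genes were often found in the same cell. In the treated bundle 841 cells held both, 56.0% (53.5 to 58.6) of the 1501 Mgl2 cells, whereas 27.3% (25.5 to 29.1) of the cells without Mgl2 held Clec10a. The rho of the 2 genes' UMIs was 0.302, and at 1000 UMIs per cell it was 0.0503, with 13.2% of Mgl2 cells and 9.14% of other cells holding Clec10a. Within clusters 0 and 3, the highest in Mgl2, the rho was 0.0802 and -0.00621, and over the 13 clusters with a Mgl2 UMI it ran from -0.0704 to 0.481.

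Mgl2 also differed with the deposited cell cycle phase. In treated CD115- cells it stood at 284 CPM (275 to 293) in G1, 163 CPM (149.7 to 176) in S and 87.0 CPM (79.6 to 94.9) in G2/M. In P-IV the levels were 523 CPM (487 to 561), 442 CPM (378 to 514) and 189.8 CPM (149 to 238) in 216, 54 and 43 cells. Clec10a differed less, at 142, 99.7 and 106 CPM in CD115- cells and 137, 85.9 and 101 CPM in P-IV. Phases were called by the authors from RNA and cut across clusters that differ in Mgl2, so phase and cluster are not separated in these values.

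The genes most like each lectin were listed over the bundle. Likeness was the Pearson r of log2(CPM + 10) over 28 groups of at least 20 cells, each a cluster in 1 library. These groups share 2 libraries and their depth, and r is given as a description over 9091 genes with 200 or more UMIs. Nearest to Mgl2 were Fgfr1 (0.946), Il1rl1 (0.938), Il1rl2, the gene of the IL-36 receptor (0.930), Sh3pxd2b (0.925) and Adra2a (0.921), followed by Rab3il1, Gm8113, Capn5, Pianp and Mras down to 0.907. Nearest to Clec10a were Lmo1 (0.872), Sult1a1 (0.869), Plpp2 (0.850), Kcne3 (0.850) and Kctd12 (0.849), followed by Gm13373, Mrc1, Clec4b1, Synj2 and Olfm1 down to 0.807. These lists of 10 shared 0 genes, as did those over the 14 steady-state groups, whereas those over the 14 treated groups shared 3, Jup, Rab3il1 and Sult1a1. Lists of 10 drawn at random from 9091 genes would seldom share a gene, so sharing 0 does not itself set the lectins apart. Mgl2 and Clec10a had an r of 0.789, which made Mgl2 the 12th gene nearest to Clec10a and Clec10a the 56th nearest to Mgl2. Over the treated groups alone their r was 0.906, and Mgl2 was the 5th nearest to Clec10a.

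The neighbours of both genes were mostly higher in P-IV than in P-III. Both lists were picked over clusters of the same cells, so the counts below are not independent of the picking. P-IV lay mostly in cluster 0 (53.4% of its cells) and P-III in cluster 1 (56.3%). Among the 6216 genes compared between P-IV and P-III above, 1.91% were at least 2-fold higher in P-IV. Some ratios rested on few P-III UMIs, with 2 for Adra2a, 4 for Pianp and 6 for Il1rl1. Of the 10 nearest to Mgl2, 10 were higher in P-IV and 7 at least 2-fold higher, with ratios from 1.11 for Capn5 (31.6 against 28.4 CPM) to 9.16 for Il1rl1 (74.3 against 8.11 CPM). Fgfr1, the nearest, stood at 245 CPM in P-IV and 63.6 CPM in P-III. Of the 10 nearest to Clec10a, 8 were higher in P-IV and 3 at least 2-fold higher, with ratios from 0.518 for Mrc1, the mannose receptor gene (29.4 against 56.8 CPM), to 3.23 for Lmo1, the nearest (105 against 32.5 CPM). Between the bundles, Fgfr1 stood at 114 CPM after treatment and 3.81 CPM in steady state, and Lmo1 at 48.6 and 16.9 CPM.

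Of the 5 galactose-type lectin genes, 3 had 50 or more UMIs in the bundle, and all 3 were at least 2-fold higher in the treated library, beside the 8.66% of all genes. The third was Asgr2, with 278 UMIs after treatment (10.3 CPM) and 5 in steady state (0.334 CPM), a ratio of 30.7 with an upper bound of 95.3. Asgr2 was at 2.04 CPM in the low-tag and 27.9 CPM in the high-tag cells, but 1 cell held 35 of its 278 treated UMIs. Its rho with the tag was 0.137 over the treated bundle, the 576th of 8258 genes, and 0.00836 in P-IV. The P-IV to P-III ratio of Asgr2 was 2.47, with an interval that holds 1 (0.869 to 9.64). Of the 139 treated cells with an Asgr2 UMI, 110 held Mgl2, beside 1501 of all 3940 treated bundle cells. Asgr1 and Clec4f, the Kupffer cell lectin gene, had no UMI in either library of the bundle.

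Other endocytic lectin receptors did not move as a group. Of the 12 listed, 9 had 50 or more UMIs. Of these, 2 were at least 2-fold higher in the treated bundle, 2 at least 2-fold lower and 5 neither, beside 8.66% and 9.46% of all genes, with a median ratio of 0.797 against 0.959 for all genes. Clec4n, the gene of the fungal receptor dectin-2, was at 6.10-fold (5.38 to 6.94), and Mrc1 at 3.63-fold (2.93 to 4.53). Clec4e, the gene of the receptor Mincle, was at 0.106 (0.0925 to 0.122), and Siglec1, the gene of a macrophage sialic acid receptor, at 0.0789 (0.0392 to 0.145). Cd209a stood at 221 CPM in the treated and 113 CPM in the steady-state bundle, and was 5.35-fold (4.05 to 7.20) higher in P-IV than in P-III.

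Of 11 genes linked to CD301b+ DCs, 10 had 50 or more UMIs, with 4 at least 2-fold higher in the treated bundle, 1 lower and 5 neither, beside the same 8.66% and 9.46% of all genes. Il1rl1 was at 27.7-fold (17.0 to 48.8), Cd24a at 7.45-fold (6.69 to 8.32), and the DC transcription factor genes Batf3 and Zbtb46 at 3.39-fold (3.16 to 3.64) and 2.09-fold (1.78 to 2.46). Klf4, a transcription factor gene known for its role in CD301b+ DCs, was lower at 0.435 (0.421 to 0.451). Klf4 was at 203 CPM in both P-IV and P-III, with a ratio between 0.832 and 1.21. Irf4, another such factor gene, was at 1.28-fold (1.15 to 1.42) between the libraries.

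The last list held enzymes that make or cap the sugars CD301 binds. Of 16 genes, 15 had 50 or more UMIs in the bundle, with 2 at least 2-fold higher in the treated library (Galnt3 at 2.42-fold, 1.75 to 3.42, and St6gal1 at 62.4 against 28.7 CPM), 1 lower (Fut4 at 0.297, 0.244 to 0.360) and 12 neither, again beside 8.66% and 9.46% of all genes. C1galt1, whose enzyme extends N-acetylgalactosamine with galactose, and its chaperone gene C1galt1c1 were at 0.524 and 0.503. Between high-tag and low-tag treated cells, 1 of the 15 was at least 2-fold higher and 1 lower, beside 3.01% and 3.16% of all genes. Between P-IV and P-III, 8 of the genes had 50 or more UMIs and 0 differed by 2-fold, beside 1.91% and 1.01% of all genes.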

How the data were processed

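The deposited RNA and tag matrices hold raw counts (UMIs per gene, counts per antibody tag), made by the authors with Cell Ranger 3.0.2 on mm10 and CITE-seq-Count. Before deposit, the authors had removed cells outside 200 to 5000 detected genes or above a mitochondrial limit of 15%, and that share is deposited in percent. Clusters, cell types, subsets and phases are the authors' labels. The members and lists were chosen with earlier results of these data known.

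For each group and library the gene's UMIs were added up and divided by all UMIs (CPM), with exact Poisson intervals; shares carry Clopper-Pearson and ratios binomial-share intervals. No test was possible with 1 library per condition. A count of 0 was read as up to the interval's bound. Ties in the tag were split by cell order. Scrublet (scanpy 1.11.5, exact neighbours) called 141 steady-state and 186 treated doublets, which were kept. Cells were drawn to 1000 UMIs (seed 20), leaving out 38 and 578. Named genes followed fixed lists and the 10 highest by r or rho. The routines were tested on simulated data. Python 3.11.15, numpy 2.4.6, scipy 1.17.1, pandas 2.3.3 and Biopython 1.88 were used.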

Additional observations from a re-analysis of the deposited data

How the results depend on the processing

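Of 80 alternatives tried for 16 values, 51 stayed within the counting interval. The Clec10a ratio of P-IV to P-III (0.969) crossed 1 in 4 of them, at 1.12 with 1000 UMIs per cell, 1.11 without cells over 5% mitochondrial UMIs, 1.04 as a mean over cells and 1.04 with both libraries pooled, and had no direction to keep. No other value crossed its null. No paired analysis was possible because there was 1 library per condition and no replicate number. With each cell at 1000 UMIs, the Mgl2 ratio between libraries was 25.2 in the bundle, 95.9 in all cells and 16.2 in MoMacDC_c2, resting on 18, 7 and 5 steady-state UMIs, and 28.5 for P-IV to P-III, resting on 2 P-III UMIs. The Clec10a ratio was then 4.33 in all cells, 0.696 (0.504 to 0.981) in MoMacDC_c2 and 1.31 (0.929 to 1.85) between high-tag and low-tag cells. P-IV shares were 35.0% for Mgl2 and 7.07% for Clec10a, and rho was 0.448 for Mgl2 with the tag, 0.0574 for Clec10a with the tag and 0.0503 for Mgl2 with Clec10a. Without cells over 5% mitochondrial UMIs, the bundle Mgl2 ratio was 42.3 and the all-cell Clec10a ratio 3.16. With each cell weighted equally, the Mgl2 ratios were 42.8 and 54.6 in the bundle and all cells, and those of Clec10a 3.69 and 4.78. With the tag as a share of all tags, the high-tag to low-tag ratios were 49.9 for Mgl2 and 1.77 for Clec10a, and rho 0.686 and 0.199. As a centred log ratio rho was 0.706 and 0.184. In CD115hi cells rho was 0.757, 0.181 and, between the genes, 0.267. Per cell total the latter was 0.273. Without doublets the MoMacDC_c2 Mgl2 level was 505 CPM. Of the alternatives, 10 were added after seeing the data, among them those on MoMacDC_c2 and doublets above. Without the neutrophil-marked clusters 11, 14 and 15, also added then, the bundle ratios were 33.6 and 3.09.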
